A study of Mus musculus with 3 samples.

Results

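The Hox genes were followed across the cell types of the adult mouse glomerulus and the kidney tissue around it. They were taken as the gene-table entries whose symbol is Hoxa, Hoxb, Hoxc or Hoxd followed only by digits. The members were chosen with earlier results of these data known, but this rule uses no measured value. It gave 40 entries with 39 different symbols, of 31058 entries in all, because Hoxd4 is listed under 2 gene IDs. Of the 40, 36 had at least 1 unique molecular identifier (UMI, 1 captured RNA molecule) in the cells kept, 30 had at least 100, and 4 (Hoxb13, Hoxc12, Hoxd12 and Hoxd13) had none.

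The study isolated kidney glomeruli from C57Bl/6 mice and sequenced all their cells by droplet single-cell RNA-seq, with 1 library per group. All mice carried Pax2.rtTA;TetO.Cre;R26.Confetti, in which doxycycline given at 20 days of age switches on a heritable colour in cells with an active Pax2 promoter and their descendants, and all were healthy and followed to 90 days. The groups were female ERaKO (the same alleles plus an estrogen receptor alpha knockout, titled RPC-ERαKO), male, and female. The labels do not say how many mice gave each library or in which cells the receptor is lost.

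Hox genes encode homeodomain transcription factors that pattern the body axis. In the mouse they lie in clusters called HoxA, HoxB, HoxC and HoxD, ordered within each cluster by paralog number, and low-numbered (anterior) genes are used nearer the head than high-numbered (posterior) ones. In the developing mouse kidney the Hox11 genes (Hoxa11, Hoxc11, Hoxd11) are required for induction of the ureteric bud and act with Eya1 and Pax2 in nephron progenitors, Hoxb7 is a standard marker of the ureteric bud and its collecting duct descendants, and many Hox genes stay on in adult cells as a record of their position of origin.

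The clusters lie at chr6:52155590-52260880 (HoxA, minus strand), chr11:96194316-96368256 (HoxB), chr15:102921103-103036852 (HoxC) and chr2:74668310-74765142 (HoxD) in GENCODE M21 on GRCm38, the annotation to which 39 of the 40 entries were matched. To show one promoter per cluster, the windows of Hoxa7, Hoxb4, Hoxc4 and Hoxd8 follow, each the member with most UMIs of its cluster among those in the RefSeq promoter table (GRCm38, 250 bases before to 50 after the transcription start, on the gene's own strand). Capitals mark CCAAT, the CCAAT-box letters, or ATTGG, the same on the other strand, which the Hoxa7 and Hoxb4 windows lack. The windows are chr6:52218524-52218823 (Hoxa7, minus strand), chr11:96318017-96318316 (Hoxb4, plus), chr15:103034145-103034444 (Hoxc4, plus) and chr2:74704365-74704664 (Hoxd8, plus).
Hoxa7: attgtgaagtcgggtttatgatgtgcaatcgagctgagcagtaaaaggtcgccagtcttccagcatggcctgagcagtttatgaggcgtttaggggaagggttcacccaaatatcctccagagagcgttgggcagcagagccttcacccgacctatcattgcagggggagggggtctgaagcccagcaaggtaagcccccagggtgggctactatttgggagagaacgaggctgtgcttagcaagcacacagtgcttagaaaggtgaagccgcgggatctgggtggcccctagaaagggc
Hoxb4: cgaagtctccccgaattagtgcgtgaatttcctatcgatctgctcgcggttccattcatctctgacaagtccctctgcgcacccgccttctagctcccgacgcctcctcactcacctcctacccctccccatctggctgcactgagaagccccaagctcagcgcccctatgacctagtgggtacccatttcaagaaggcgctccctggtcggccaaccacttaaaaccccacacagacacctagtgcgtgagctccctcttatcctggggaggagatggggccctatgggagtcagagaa
Hoxc4: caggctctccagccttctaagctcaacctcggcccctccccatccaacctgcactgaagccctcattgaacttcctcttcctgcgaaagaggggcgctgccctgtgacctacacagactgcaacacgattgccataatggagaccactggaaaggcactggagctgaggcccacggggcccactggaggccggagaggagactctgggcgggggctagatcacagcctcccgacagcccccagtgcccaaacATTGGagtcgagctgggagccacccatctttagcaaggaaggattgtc
Hoxd8: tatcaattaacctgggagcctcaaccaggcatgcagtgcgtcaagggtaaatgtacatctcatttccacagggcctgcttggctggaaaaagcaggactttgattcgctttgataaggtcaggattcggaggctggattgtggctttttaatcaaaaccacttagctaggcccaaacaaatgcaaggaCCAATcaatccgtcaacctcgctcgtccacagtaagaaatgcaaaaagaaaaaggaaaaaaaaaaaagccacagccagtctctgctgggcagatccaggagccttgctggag
The table held 24 promoters of 22 Hox genes among 32851 promoters of this length. Read on both strands, CCAAT or its reverse complement was present in 15 of the 24 (62.5%), against 37.4% of all promoters in the table. TATAAA, the TATA-box letters, was in 4 of 24 (16.7%) against 13.6% of all, and TGATTNAT, the letters bound by Pbx and Hox proteins together, in 2 of 24 (8.33%) against 3.22%. The Hox promoters held a median of 14.5 CG dinucleotides, against 7 over all promoters. These are matches of letters, and binding was not measured.

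The 3 libraries held 3986 (female ERaKO), 4244 (male) and 3555 (female) barcodes with 47522141, 44585342 and 44942380 UMIs. After removal of barcodes with few genes, much mitochondrial RNA (34.0%, 20.97% and 17.7% of barcodes) or a doublet call, 2558, 3244 and 2833 cells remained, 8635 in all. Cells were clustered without the Hox genes, and clusters were named from marker lists. Each name below stands for a cluster with those markers (podocyte-like and so on). The stromal lineage of 1203 cells joined mesangial cells (402), smooth muscle and renin cells (705) and a fibroblast-like cluster (96, led by Pcp4, Dcn and Coch). Endothelial cells numbered 1653 and immune cells 320 (216 macrophages, 104 T and NK cells). Podocytes were 3736 cells, parietal epithelial cells of Bowman's capsule 420, proximal tubule 405, thick limb 50, distal convoluted tubule 107, collecting duct principal cells 126 and intercalated cells 127, which together form the epithelial lineage of 4971 cells. Another 488 cells stayed unnamed. Each class had at least 5 of its fixed markers at their highest level in that class (podocytes 8 of 8, mesangial cells 7 of 8, endothelial cells 9 of 10). Parietal cells had the lowest share, with 5 of 8. Of the cell barcodes, 8 were shared by the female ERaKO and male libraries and 4 by each other pair.

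Where 3 values follow each other they belong to the female ERaKO, the male and the female library, and CPM is UMIs per 1000000 UMIs of that class in that library. A 3′ library gives 1 UMI per captured transcript end, so CPM is not divided by gene length. Lineages were compared with edgeR's quasi-likelihood test on UMIs summed per lineage and library, with the library as a block, and called at a Benjamini-Hochberg adjusted p under 0.05 over all genes tested. The 3 libraries differ in sex and genotype, so the spread in that test holds these differences too, and log2 fold changes are given ± SE.

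Hox transcripts were abundant in epithelial and stromal cells, at an intermediate level in endothelial cells and scarce in immune cells. All Hox entries together held 92900 UMIs, 0.0977% of the UMIs of kept cells. Their summed level was 945, 1028 and 1044 CPM in stromal cells, 562, 606 and 589.8 CPM in endothelial cells, 219, 54.0 and 83.4 CPM in immune cells, and 1078, 1211 and 1168 CPM in epithelial cells. Immune cells were lowest in every library and endothelial cells second lowest, and the ranges of the 4 lineages did not overlap, with stromal and epithelial cells closest to each other. After thinning every cell to 4000 UMIs, which left out no cell, a Hox UMI was present in 96.6% of stromal cells (exact 95% interval 95.4 to 97.5%), 88.0% of endothelial cells (86.4 to 89.5%), 17.5% of immune cells (13.5 to 22.1%) and 97.4% of epithelial cells (96.9 to 97.8%). Without thinning the shares were 99.2%, 96.2%, 26.9% and 99.6% in stromal, endothelial, immune and epithelial cells, at median depths of 6384, 7105, 6642.5 and 8830 UMIs per cell. All intervals here cover counting error only.

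The immune level is given as a reference for this measurement. It was high in 1 class of 1 library: T and NK cells held 434 CPM of Hox transcripts in the female ERaKO library, 26.5 CPM in the male and 79.8 CPM in the female library. In those same cells podocyte markers stood at 22.7%, 1.04% and 4.01% of their level in podocytes, HoxC transcripts at 30.1%, 1.37% and 7.01%, and stromal markers at 6180, 287 and 216 CPM. With cells holding over 1% of UMIs in markers of another lineage left out, the immune sum was 82.8, 38.1 and 31.6 CPM and the thinned share 11.9%. With each cell assigned by its own marker scores, the immune sum was 353, 108 and 187 CPM. Endothelial cells carried podocyte markers at 7.07%, 6.61% and 6.65% of the podocyte level but HoxC transcripts at 2.03%, 2.003% and 1.51%.

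The 4 clusters were distributed differently over the lineages. HoxC was at 318, 372 and 334 CPM in stromal cells but at 10.3, 12.9 and 9.33 CPM in endothelial cells, against 356, 477 and 509.8 CPM in epithelial cells. HoxB went the other way in these sums, with 236, 253 and 299 CPM in stromal, 304, 359.8 and 365 CPM in endothelial and 227, 192 and 127 CPM in epithelial cells. The epithelial classes were unlike. HoxB stood at 14.4%, 9.89% and 9.64% of the endothelial level in podocytes and at 54.9%, 35.1% and 50.6% in proximal tubule cells. In parietal cells it was at 153%, 183% and 128%, and in collecting duct cells at 172%, 155% and 184%. HoxA was at 242, 250.3 and 265 CPM in stromal, 217, 199.97 and 189.7 CPM in endothelial and 342, 383 and 407 CPM in epithelial cells, and HoxD was at 149, 154 and 146 CPM in stromal, 30.9, 32.8 and 26.3 CPM in endothelial and 153, 158 and 124 CPM in epithelial cells. The cluster shares differed likewise: HoxC gave 1.85% of endothelial Hox UMIs, against 34.2% of stromal and 39.3% of epithelial ones, whereas HoxB gave 59.0%, against 25.7% and 15.4%.

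**Figure D1:**
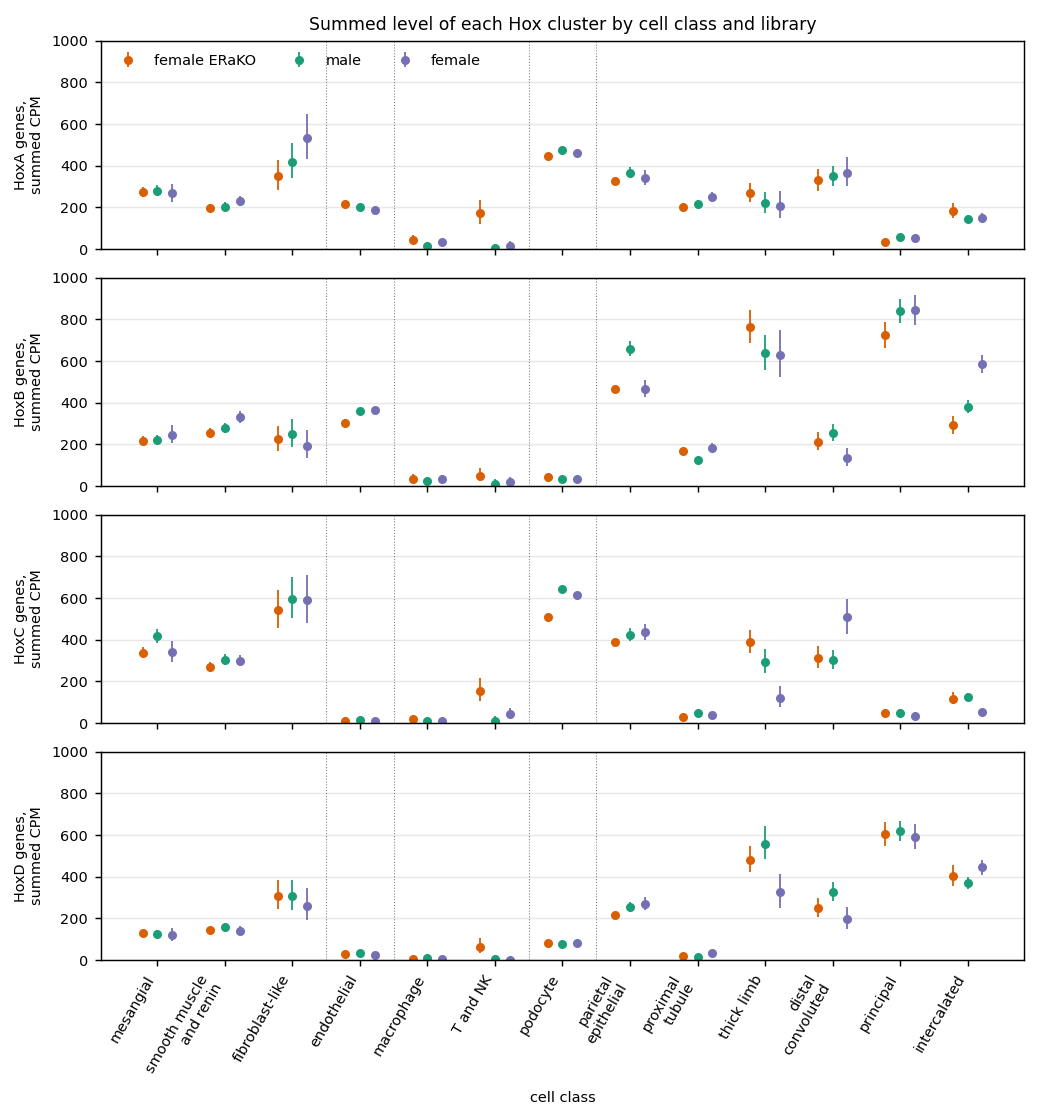
Summed CPM of the HoxA, HoxB, HoxC and HoxD genes in each of 13 cell classes, 1 point per library with its exact 95% Poisson interval, on a linear axis from 0. HoxB is low in podocytes and HoxC low in endothelial cells, principal cells and the proximal tubule, in all 3 libraries.

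By position, genes of paralog groups 1 to 3 gave 11.5% of stromal, 12.1% of endothelial and 3.72% of epithelial Hox UMIs. Groups 4 to 8 gave 45.5%, 71.5% and 61.9%, and groups 9 to 13 gave 43.0%, 16.4% and 34.4%. Stromal cells thus had the largest posterior share and endothelial cells the largest central share of these 3 lineages. By class, groups 9 to 13 gave 51.7% in the fibroblast-like cluster, 44.2% in mesangial cells and 40.1% in smooth muscle and renin cells. In parietal cells these groups gave 50.9%, above mesangial cells and smooth muscle and renin cells. They gave 30.4% in podocytes and 27.9% to 38.7% in the other epithelial classes.

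**Figure D2:**
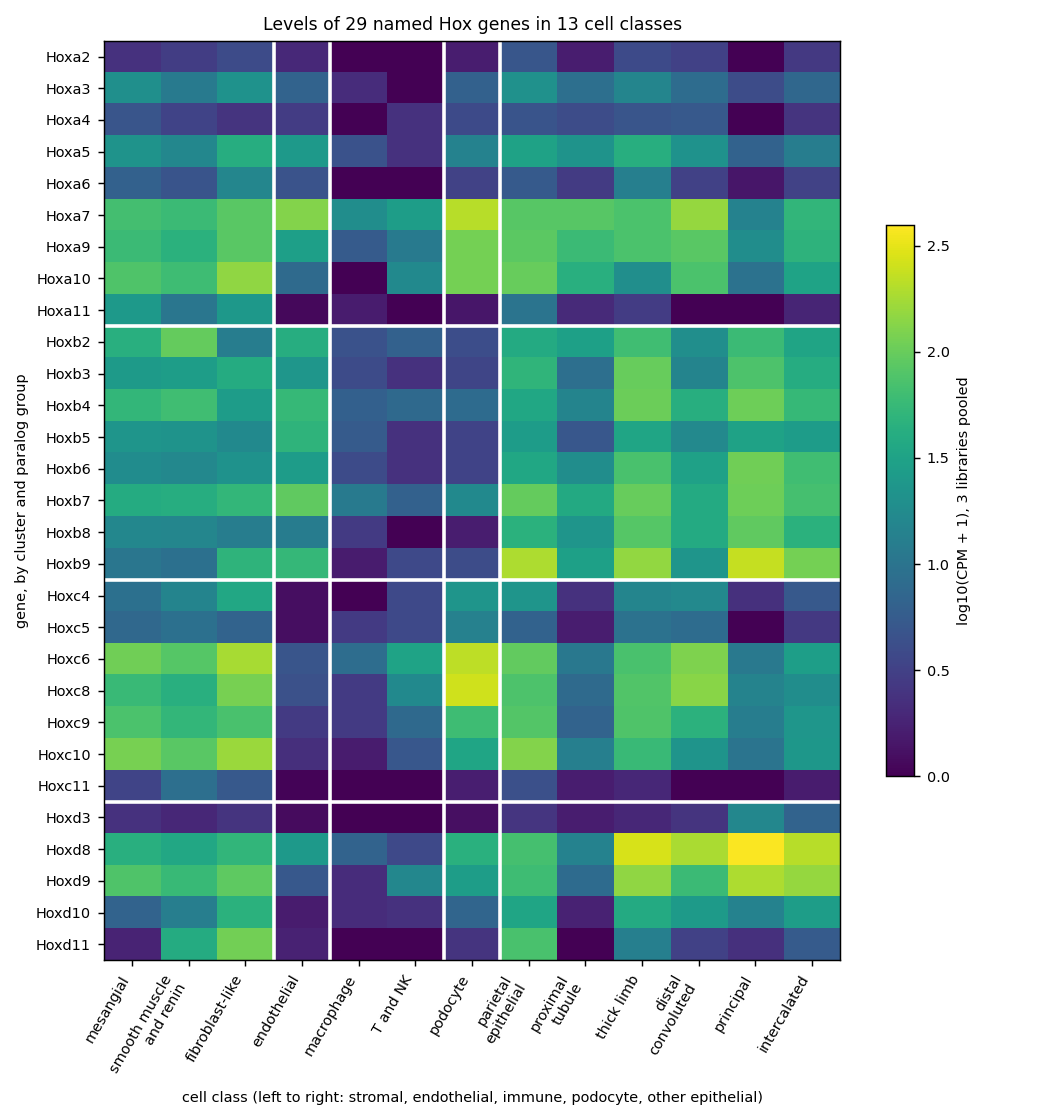
Pooled level of 29 Hox genes with at least 100 UMIs (rows, by cluster and paralog number) in 13 cell classes (columns), as log10(CPM + 1). Dark cells are low: the HoxC block is dark in endothelial cells and the HoxB block dark in podocytes.

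In stromal cells the Hox11 genes, Hoxc10 and part of HoxB stood above epithelial cells. Of 27 Hox genes that passed the low-count filter, 10 rose (37.0%) where 26.4% of all genes tested rose, and 5 fell (18.5%) where 26.9% of all genes fell; the Hox median was 0.16 and that of all genes -0.00 on the log2 scale. These shares are near those of all genes. Hoxa11 had 16.5, 18.4 and 12.9 CPM in stromal cells and 2.62, 1.36 and 0.914 CPM in epithelial cells (log2 fold change 3.34 ± 0.34, adjusted p = 1.1e-05). Hoxd11 had 23.3, 32.5 and 35.1 CPM in stromal cells, against 17.0, 9.19 and 5.53 CPM in epithelial cells (1.62 ± 0.34, adjusted p = 0.0035). Both genes were higher in stromal cells of every library, and the lowest stromal Hoxd11 value exceeded the highest value of the epithelial sums. Within the epithelium, however, Hoxd11 had 63.0 to 91.7 CPM in parietal cells, above the stromal range, and 1.82, 1.17 and 1.47 CPM in podocytes. The Hoxd11 call was lost in 2 of 16 alternatives. Hoxc11, the third Hox11 gene, was scarce, at 3.67, 5.93 and 8.32 CPM in stromal and 0.893, 1.15 and 0.784 CPM in epithelial cells (2.59 ± 0.44, adjusted p = 0.00099). Hoxc10, a hindlimb-level gene, had 98.5, 119 and 81.4 CPM in stromal cells and 52.4, 42.7 and 29.9 CPM in epithelial cells (1.27 ± 0.20, adjusted p = 0.00034).

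Of the HoxB genes, Hoxb2, a hindbrain gene of the embryo, had 64.5, 61.9 and 90.2 CPM in stromal cells against 19.3, 15.2 and 12.5 CPM in epithelial cells (2.18 ± 0.19, adjusted p = 4.1e-06). Hoxb4 had 49.5, 57.1 and 64.3 CPM in stromal cells, against 22.9, 21.8 and 16.6 CPM in epithelial cells (1.47 ± 0.15, adjusted p = 1.4e-05). Both were higher in stromal cells of all libraries without overlap. Hoxb5, Hoxa6, Hoxa3 and Hoxb3 also rose, by log2 1.22, 1.01, 0.91 and 0.77, and the Hoxa6 call was lost in 5 of 16 alternatives. The genes that fell were Hoxb9 (-2.03), Hoxc8 (-1.65), Hoxa7 (-1.33), Hoxd8 (-0.93) and Hoxa9 (-0.85). Hoxc8, which marks thoracic levels in the embryo, had 52.4, 56.2 and 52.7 CPM in stromal cells against 124, 185 and 209.7 CPM in epithelial cells. Podocytes supplied 45.8%, 62.6% and 77.1% of the epithelial UMIs in the 3 libraries, and the epithelial sums of Hoxc8 and Hoxc6 were ordered in the same way. With podocytes left out of the epithelial sums, 7 genes rose and 7 fell, Hoxc8 (0.29) and Hoxc6 (0.95) had positive fold changes, and Hoxb3 (-0.58) and Hoxb5 (-0.017) had negative ones. Without the male library 6 genes rose.

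**Figure D3:**
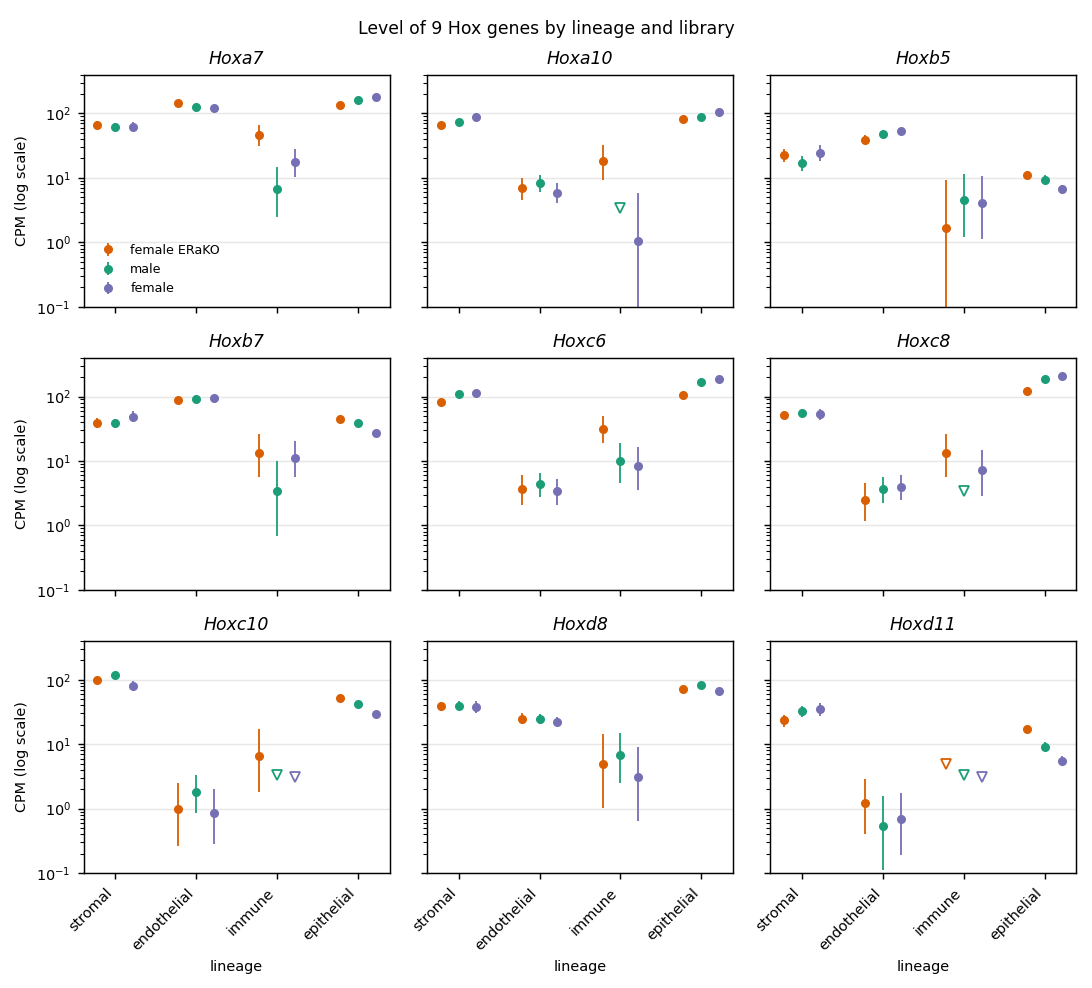
CPM of 9 Hox genes in stromal, endothelial, immune and epithelial cells, 1 point per library with its exact 95% Poisson interval (cut off at the lower edge), on a log axis; open triangles mark the level of 3 counts where a library had no UMI. Hoxc6, Hoxc8, Hoxc10 and Hoxd11 are lower in endothelial than in stromal and epithelial cells, and Hoxb5 is highest in endothelial cells.

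Endothelial cells had most HoxB genes above and HoxC, HoxD and posterior HoxA genes below the epithelial sums. Podocytes gave 63.1% of the UMIs of those sums over all libraries. Of the 27 genes, 7 rose (25.9%, against 31.6% of all genes) and 14 fell (51.9%, against 31.9%), and the Hox median was -1.61, against 0.00 over all genes. All 7 HoxC genes tested fell. Hoxc8 had 2.45, 3.63 and 3.97 CPM in endothelial cells and 124, 185 and 209.7 CPM in epithelial cells (-5.63 ± 0.32, adjusted p = 1.1e-07). Hoxc6 had 3.68, 4.36 and 3.46 CPM in endothelial cells and 104, 166 and 188 CPM in epithelial cells (-5.28 ± 0.32, adjusted p = 1.5e-07). Hoxc9 had 2.45, 1.996 and 1.04 CPM in endothelial cells, against 50.3, 53.9 and 54.0 CPM in epithelial cells (-4.86 ± 0.23, adjusted p = 4.7e-08). No library's endothelial value of these genes came within 10-fold of its epithelial value. The fitted changes of Hoxc4, Hoxc10, Hoxc5, Hoxd10, Hoxd11 and Hoxd9 lay between -5.96 and -3.44.

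Hoxa10, a posterior gene with a known role in uterine and limb patterning, had 6.87, 8.17 and 5.87 CPM in endothelial cells against 82.2, 88.2 and 105 CPM in epithelial cells (-3.69 ± 0.34, adjusted p = 3.5e-06). Hoxa9 (-1.72) and Hoxd8 (-1.61) fell less. Hoxd8 had 25.04, 24.5 and 21.9 CPM in endothelial cells and 70.6, 84.3 and 67.0 CPM in epithelial cells. Hoxa11 had only 2 endothelial UMIs against 94 epithelial ones, a CPM ratio of 12.03 in favour of epithelial cells with a counting interval of 3.24 to 101, and Hoxc11 had 1 against 56 (14.3, interval 2.47 to 576).

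The gene with the largest rise was Hoxb5, whose product is known to activate the endothelial receptor gene Kdr. It had 39.0, 48.5 and 52.7 CPM in endothelial cells and 10.99, 9.40 and 6.62 CPM in epithelial cells (2.41 ± 0.21, adjusted p = 2.5e-06). Hoxb7 had 89.1, 90.7 and 94.0 CPM in endothelial cells against 45.6, 39.1 and 27.7 CPM in epithelial cells (1.32 ± 0.18, adjusted p = 7.6e-05). Hoxb2 (1.39), Hoxb4 (1.41), Hoxb6 (0.58), Hoxb3 (0.55) and Hoxa5 (0.54) were the others that rose. Hoxa7 did not pass the test, with 144, 124 and 122 CPM in endothelial cells and 134, 161 and 177 CPM in epithelial cells (-0.26 ± 0.23, adjusted p = 0.34). Against the epithelium without podocytes 2 genes rose and 19 fell, Hoxb3 and Hoxb6 had fold changes of -0.84 and -0.89, and Hoxa7 had 0.75. Without the male library 4 genes rose. Over 16 alternatives the Hoxb3 rise was lost in 8 and the Hoxb6 rise in 6, beside those that turned their sign.

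Stromal cells set against endothelial cells, which involves no podocytes, gave 16 genes that rose (59.3%, against 20.7% of all genes) and 5 that fell (18.5%, against 22% of all). The Hox median was 0.87, against -0.03 over all genes. All 7 HoxC genes rose, by 3.99 (Hoxc8) to 6.27 (Hoxc10), and so did Hoxd8 to Hoxd11 and Hoxa9 to Hoxa11. Hoxc10 had 98.5, 119 and 81.4 CPM in stromal cells and 0.982, 1.81 and 0.864 CPM in endothelial cells (6.27 ± 0.33, adjusted p = 4.1e-07). Hoxa10 had 65.5, 72.3 and 86.9 CPM in stromal cells and 6.87, 8.17 and 5.87 CPM in endothelial cells (3.39 ± 0.35, adjusted p = 2.2e-05). Hoxd9 had 74.7, 63.6 and 52.2 CPM in stromal cells, against 4.17, 5.44 and 2.94 CPM in endothelial cells (3.88 ± 0.34, adjusted p = 6.3e-06). The stromal range lay above the endothelial one for each of these genes. Hoxa11 had 156 stromal UMIs against 2 endothelial ones, a CPM ratio of 126 (interval 34.3 to 1049). The remaining genes that rose were Hoxa3 (1.31) and Hoxb2 (0.79), and Hoxb2 was at -0.18 with 1 sum per class and classes weighted equally. Hoxb9, Hoxb5, Hoxb7, Hoxa7 and Hoxb6 fell by 2.18, 1.19, 1.16, 1.07 and 0.67 on the log2 scale, and the Hoxb6 call was lost in 8 of 15 alternatives. Hoxb9 had 9.69, 11.02 and 15.7 CPM in stromal cells and 38.8, 59.5 and 56.1 CPM in endothelial cells, again without overlap.

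Immune cells had less Hox RNA across all 4 clusters. No gene rose, where 27.8% of all genes rose, and 24 of 27 fell (88.9%), where 32% of all genes fell. At an unadjusted p under 0.05 the edgeR test also found 24 Hox genes, and DESeq2 called 0 higher and 23 lower. The Hox median was -2.82, or -2.7 with genes at 0 immune UMIs set to their bound, against -0.17 over all genes. Hoxd8 had 4.97, 6.75 and 3.09 CPM in immune cells and 70.6, 84.3 and 67.0 CPM in epithelial cells (-3.51 ± 0.22, adjusted p = 3.5e-07). Hoxb4, used in blood stem cells, had 8.28, 5.63 and 4.12 CPM in immune cells against 22.9, 21.8 and 16.6 CPM in epithelial cells (-1.44 ± 0.32, adjusted p = 0.0028). Neither gene overlapped between the lineages. Hoxd11 had no immune UMI and was at least 8.30-fold higher in epithelial cells, counting 3 UMIs as the limit over the lineage, and Hoxa6, also at 0, at least 2.13-fold. Hoxb9 had 3 immune UMIs, a ratio of 38.6 in favour of epithelial cells (interval 13.2 to 187). Hoxb5 (-0.89), Hoxa11 and Hoxc11 did not pass the test; Hoxb5 had 1.66, 4.50 and 4.12 CPM in immune cells. After thinning, a Hoxc8 UMI was found in 18.5% of stromal, 0.847% of endothelial, 2.19% of immune and 48.4% of epithelial cells. A Hoxb5 UMI was found in 7.48%, 18.3%, 1.25% and 2.45% of these cells. The endothelial Hoxc8 share is below the immune share, and the source of either was not tested.

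Within the epithelium, podocytes had the largest share of HoxC and the smallest share of HoxB among their Hox UMIs. Distal convoluted cells had the next largest HoxC share, 29.5% over all libraries and 42.2% in the female library (13 cells). In that library Hoxc8, Hoxa7 and Hoxc6 were their leading genes, the same genes as in podocytes. Podocyte Hox UMIs were 50.9% HoxC and 39.1% HoxA, with 3.15% HoxB and 6.80% HoxD, and Hoxc8, Hoxc6 and Hoxa7 gave 57.7% of them. Set against the other epithelial cells (parietal, tubule and collecting duct summed), 9 of 29 genes tested rose (31.0%, against 33.9% of all genes) and 18 fell (62.1%, against 37.5%), with a Hox median of -1.41 against -0.02 over all genes. The 9 that rose were HoxA or HoxC genes, among them Hoxc8, Hoxc5, Hoxc6, Hoxa7, Hoxc4, Hoxa10, Hoxa9 and Hoxc9. Hoxc8 had 215, 271 and 261 CPM in podocytes, 68.1, 82.5 and 78.6 CPM in parietal cells and 19.3, 15.3 and 4.68 CPM in principal cells (podocyte against other epithelial 2.66 ± 0.13, adjusted p = 1.8e-06). Hoxc6 had 166, 234 and 231 CPM in podocytes, 82.0, 101 and 125 CPM in parietal cells and 13.8, 11.3 and 4.68 CPM in principal cells (2.16 ± 0.13, adjusted p = 6.1e-06). Hoxa7 had 203, 213 and 209 CPM in podocytes, 81.3, 87.8 and 77.6 CPM in parietal cells and 6.89, 19.4 and 10.9 CPM in principal cells (1.60 ± 0.08, adjusted p = 2.2e-06). Podocytes were highest of these classes in each library for all 3 genes.

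All 8 HoxB genes and all 5 HoxD genes tested fell in podocytes. Hoxb9 had 5.23, 3.08 and 1.86 CPM in podocytes, 166, 259 and 172 CPM in parietal cells and 219, 248 and 231 CPM in principal cells (-5.19 ± 0.23, adjusted p = 1.3e-06). Hoxb8 had 0.608, 0.417 and 0.735 CPM in podocytes against 79.9, 102 and 85.8 CPM in principal cells (-6.10 ± 0.18, adjusted p = 2.5e-07). Hoxb7, the collecting duct marker, had 16.9, 14.8 and 17.0 CPM in podocytes, against 125, 102 and 90.4 CPM in principal cells (-2.03 ± 0.11, adjusted p = 3e-06). The podocyte values lay far below those of the other 2 classes in every library, Hoxb7 least so. Endothelial cells had 89.1, 90.7 and 94.0 CPM of Hoxb7. Endothelial markers in podocytes reached 18.4%, 16.9% and 15.7% of their endothelial level. The part of endothelial RNA in the podocyte Hoxb7 values was not tested. Hoxd11 had 1.82, 1.17 and 1.47 CPM in podocytes and 63.0, 78.2 and 91.7 CPM in parietal cells (-3.87 ± 0.18, adjusted p = 1.3e-06). Hoxd8 had 42.3, 44.3 and 44.5 CPM in podocytes and 375, 384 and 389.8 CPM in principal cells (-1.45 ± 0.13, adjusted p = 4e-05), and Hoxd3, Hoxd10 and Hoxd9 changed by -3.54, -1.66 and -1.41. Along the axis the change did not follow paralog number: within groups 8 to 10, Hoxc8, Hoxa9 and Hoxa10 rose while Hoxb8, Hoxb9 and Hoxd10 fell. Hoxa11 (-2.67), Hoxa2 (-1.53), Hoxa3 (-0.91), Hoxa5 (-0.68) and Hoxc10 (-0.48) completed the 18. Hoxa4 (0.23) and Hoxa6 (-0.31) did not pass the test.

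**Figure D4:**
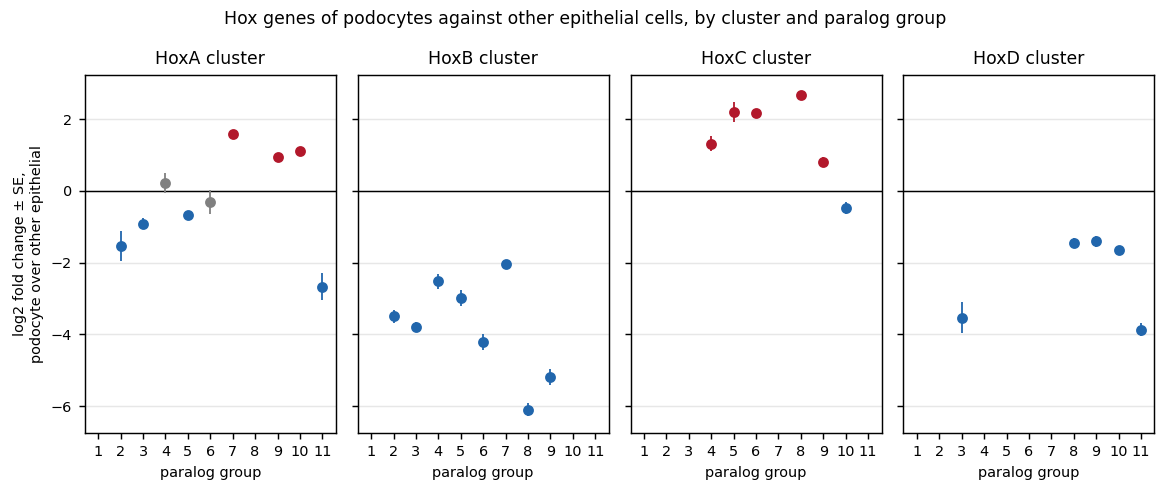
Log2 fold change (± SE) of the Hox genes in podocytes over the other epithelial cells against its paralog group, with HoxA, HoxB, HoxC and HoxD in separate panels; red genes rose, blue genes fell and grey genes did not pass the test. All points of HoxB and HoxD lie below 0, while those of HoxC groups 4 to 9 lie above it.

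The other epithelial classes differed among themselves, and the neighbours of the podocyte were not uniform. Parietal cells, which line Bowman's capsule beside the podocytes, used all 4 clusters: 22.7% HoxA, 34.5% HoxB, 27.1% HoxC and 15.7% HoxD. Their HoxC sum was 76.8%, 66.1% and 70.7% of the podocyte level, while podocyte markers there stood at 2.94%, 1.59% and 2.59% of theirs. Principal cells were 53.4% HoxB and 40.3% HoxD with 3.03% HoxC, and Hoxd8, Hoxb9 and Hoxd9 gave 53.6% of their Hox UMIs. Intercalated cells had 199 to 226 CPM of Hoxd8, below principal cells in every library, and the few thick limb cells had 215 to 326 CPM. Proximal tubule cells had the lowest epithelial sum, at 419.7, 407 and 508 CPM, with 37.4 CPM of HoxC over all libraries. Thick limb cells (50 cells, of which 8 in the female library) had 1901, 1709 and 1279.95 CPM and distal convoluted tubule cells 1107, 1236 and 1203 CPM, with HoxC at 305 and 349.7 CPM over all libraries.

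Over the 11 classes with at least 20 cells in every library, 9 of the 30 genes with at least 100 UMIs were highest in principal cells, 8 in the fibroblast-like cluster, 6 in podocytes, 2 each in mesangial cells, parietal cells and smooth muscle and renin cells, and 1 (Hoxb5) in endothelial cells. For 13 of the 30 the lowest library of the top class exceeded the highest library of the second class, among them Hoxd8, Hoxb8, Hoxb3 and Hoxd3 in principal cells, Hoxc8, Hoxa7, Hoxa9 and Hoxc5 in podocytes, and Hoxb2 in smooth muscle and renin cells. For the other 17 the top 2 classes overlapped. Hoxb9, for example, reached 219 to 248 CPM in principal cells and 166 to 259 CPM in parietal cells. These orders are a description with no test.

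Among the stromal classes, Hoxd11 and Hoxb2 were lower and Hoxa11 higher in mesangial cells than in smooth muscle and renin cells. Mesangial cells set against smooth muscle and renin cells gave 1 gene of 24 that rose (4.2%, against 18.6% of all genes) and 5 that fell (20.8%, against 18.6%), with a Hox median of -0.02 and a median of -0.00 over all genes. Hoxd11 had 0, 2.04 and 0 CPM in mesangial cells and 29.7, 45.9 and 42.2 CPM in smooth muscle and renin cells. These were 3 UMIs against 201, a ratio of 47.7 in favour of smooth muscle and renin cells (interval 16.1 to 233). Hoxa11, the paralog in HoxA, went the other way, with 27.6, 23.8 and 18.6 CPM in mesangial cells and 7.44, 11.5 and 9.69 CPM in smooth muscle and renin cells (1.09 ± 0.28, adjusted p = 0.0075). DESeq2 did not call that rise, nor did edgeR without the female ERaKO library. Hoxb2 had 41.4, 40.9 and 50.1 CPM in mesangial cells against 91.4, 85.8 and 116 CPM in smooth muscle and renin cells (-1.38 ± 0.13, adjusted p = 3e-06). None of these 3 genes overlapped between the classes. Hoxd10 (-1.27), Hoxc4 (-0.99) and Hoxb4 (-0.45) also fell. DESeq2 called none of these 3, and over 12 alternatives the Hoxb4 call was lost in 8, the Hoxd10 call in 2 and the Hoxc4 call in 2. The fibroblast-like cluster had 123, 116 and 83.3 CPM of Hoxd11, 146, 182 and 155 CPM of Hoxc10 and 119, 145 and 194 CPM of Hoxa10, and in it podocyte markers reached 11.61%, 5.29% and 8.27% of their podocyte level; their part in these values was not tested.

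The remaining members ranged from scarce genes to Hoxa9, at 88.1 to 98.7 CPM in epithelial cells. Over the 4 lineages and 3 libraries, Hoxa2, a hindbrain gene of the embryo, and Hoxd3 did not pass the filter of the lineage test and stayed at or below 3.24 CPM. Hoxa4 ranged over 2.26 to 3.41 CPM in stromal, 1.45 to 2.7004 CPM in endothelial, 0 to 1.66 CPM in immune and 2.48 to 3.35 CPM in epithelial cells. Hoxa5, needed for lung formation, ranged over 15.2 to 27.3, 21.8 to 25.04, 1.13 to 5.15 and 15.4 to 17.0 CPM in these lineages, with a stromal range that spanned those of endothelial and epithelial cells. Hoxa3, a gene of the pharyngeal arches, had 13.4 to 14.97, 4.91 to 6.74, 0 to 2.06 and 6.36 to 8.98 CPM, and Hoxa6 3.41 to 7.86, 3.63 to 3.68, 0 and 2.003 to 3.19 CPM. Hoxb3, Hoxb6 and Hoxb8 had 23.8 to 31.1, 14.4 to 20.1 and 12.6 to 16.4 CPM in stromal cells, 20.9 to 25.5, 19.6 to 29.8 and 9.08 to 14.2 CPM in endothelial cells, 2.06 to 3.31, 0 to 4.97 and 1.03 to 1.66 CPM in immune cells, and 10.6 to 22.3, 14.9 to 18.9 and 10.97 to 22.03 CPM in epithelial cells. Hoxa9 had 47.2 to 55.5, 23.2 to 31.2, 2.06 to 19.9 and 88.1 to 98.7 CPM in stromal, endothelial, immune and epithelial cells, with no overlap.

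Genes of the comparisons above had these levels in the lineages not yet given for them. Hoxc6 and Hoxc9 had 83.1 to 112 and 57.8 to 62.1 CPM in stromal cells, and 8.24 to 31.5 and 1.13 to 6.62 CPM in immune cells. Hoxa7 and Hoxa10 had 61.3 to 66.3 and 65.5 to 86.9 CPM in stromal cells, and 6.75 to 46.4 and 0 to 18.2 CPM in immune cells. Hoxb5 and Hoxb7 had 16.7 to 24.5 and 38.4 to 48.5 CPM in stromal cells, and immune Hoxb7 was at 3.38 to 13.2 CPM. In each of these genes the highest immune value stayed below the lowest stromal one. Hoxb9, with 27.0 to 64.9 CPM in epithelial cells, and Hoxb2 and Hoxb4, with 34.9 to 47.0 and 47.4 to 57.0 CPM in endothelial cells, had at most 2.25, 6.62 and 8.28 CPM in immune cells. Hoxd8 had 37.9 to 39.8 CPM in stromal cells and Hoxd9 38.9 to 50.7 CPM in epithelial cells, and immune Hoxd9 was at 0 to 18.2 CPM. Immune Hoxc8 and Hoxc10 were at 0 to 13.2 and 0 to 6.62 CPM, with the female ERaKO library highest.

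Hoxc4 had 11.005 to 14.8 CPM in stromal, 0 to 0.544 CPM in endothelial, 0 to 1.66 CPM in immune and 16.2 to 18.2 CPM in epithelial cells, and Hoxc5 had 6.47 to 7.91, 0 to 0.544, 0 to 6.62 and 8.42 to 9.92 CPM. Hoxd10 had 9.96 to 13.9, 0 to 1.27, 1.03 to 1.66 and 9.32 to 13.1 CPM. The 6 entries with fewer than 100 UMIs were Hoxa13, with a single UMI, Hoxb1 (10), Hoxc13 (2, both in 1 cell), Hoxd1 (4) and the 2 Hoxd4 IDs (32 and 85). Several members share exonic sequence with other genes in the annotation, so their UMIs could be split or lost: on the same strand Hoxd3 with Hoxd4, Hoxc5 with Hoxc10, and Hoxa2 and Hoxa3 with Gm28308. On the opposite strand Hoxa3 and Hoxa7 overlap Hoxaas3, Hoxa3 and Hoxa4 overlap Gm29430, Hoxb2 and Hoxb3 overlap Hoxb3os, Hoxb5 overlaps Hoxb5os, and Hoxd3 and Hoxd4 overlap Hoxd3os1. The strand setting of the counting is not given in the sources used here, and the values of these genes are uncertain to that extent.

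Within a cell type, Hox genes were also compared between the libraries. Each count is given beside the share over all genes, and none is read as particular to Hox genes. Each group was a single library, so these contrasts carry no test and no replicate check; a gene with at least 20 UMIs over both libraries was counted as differing at a ratio of 1.5-fold or more, on the CPM + 1 scale. In podocytes of the female ERaKO library against the female library, 1 of 26 genes was higher (4.84% of all genes were) and 0 were lower (2.81% of all were), with a Hox median of 0.12 against 0.01 over all genes. The gene was Hoxb9, at 5.23 CPM in the female ERaKO and 1.86 CPM in the female library, 43 against 33 UMIs. Parietal cells, with 166 to 259 CPM of Hoxb9, were 8.56% of kept cells in the female ERaKO and 2.79% in the female library. Their part in the podocyte values was not tested. In podocytes of the male against the female library it was Hoxa6 of 26 genes, at 3.25 CPM in the male and 1.53 CPM in the female library (higher 1.97% and lower 1.62% of all genes). The HoxC sum of podocytes was 507 CPM in the female ERaKO against 616 CPM in the female library (log2 ratio -0.28, counting interval -0.33 to -0.23). Hoxc6 had 166 CPM in female ERaKO and 231 CPM in female podocytes (-0.47, interval -0.56 to -0.38). The male podocytes had 643 CPM of HoxC against 616 CPM in the female ones (0.06, interval 0.02 to 0.10).

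**Figure D5:**
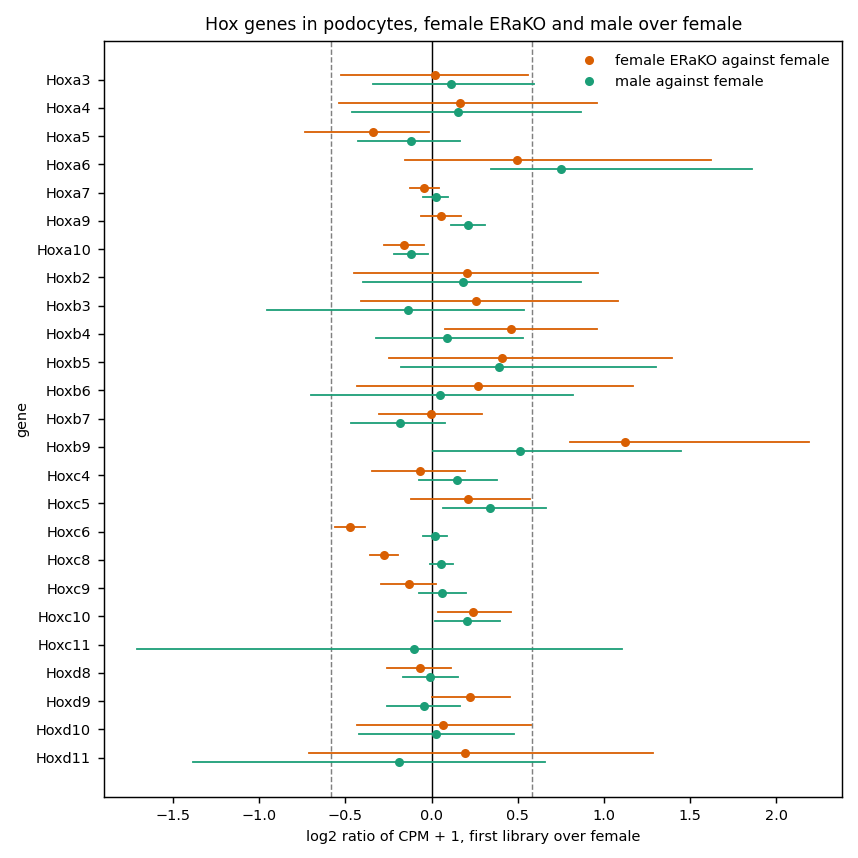
Log2 ratio of CPM + 1 in podocytes for Hox genes with at least 20 UMIs, female ERaKO over female and male over female; lines are exact 95% counting intervals of the ratio without the added 1, and dashed lines mark 1.5-fold. Most points lie between the dashed lines, and Hoxc6 and Hoxc8 lie below 0 in the female ERaKO library.

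In endothelial cells, 0 of 19 Hox genes passed 1.5-fold in the female ERaKO against the female library (higher 5.47% and lower 4.31% of all genes). In the male against the female library 1 of 18 was higher, Hoxd9 at 5.44 CPM in the male and 2.94 CPM in the female library, with a counting interval that includes no difference (higher 3.56% and lower 3.14% of all). In stromal cells, 4 of 26 genes were lower and 0 higher in the female ERaKO library (lower 7.72% and higher 7.11% of all): Hoxa5 had 15.2 CPM in the female ERaKO against 27.3 CPM in the female library, Hoxa6 3.41 against 7.86, Hoxb9 9.69 against 15.7 and Hoxc11 3.67 against 8.32. The counting interval of Hoxb9 includes no difference. The stromal HoxB sum was 236 CPM in the female ERaKO and 299 CPM in the female library (-0.34, interval -0.49 to -0.19). In the male library 0 of 27 stromal genes differed (higher 6.16% and lower 7.74% of all). The stromal sums mix classes in different proportions, with 151, 199 and 52 mesangial cells, and the part of this mix in the differences was not tested.

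Other genes of the Hox system were taken from fixed lists. Of 9 TALE cofactors, homeodomain proteins that bind DNA together with Hox proteins, 8 were tested between lineages. In stromal against epithelial cells 5 of the 8 rose and 2 fell (26.4% and 26.9% of all genes did), in endothelial against epithelial cells 4 rose and 3 fell (31.6% and 31.9% of all), and in immune against epithelial cells 1 rose and 3 fell (27.8% and 32% of all). Meis2 had 1639, 1424 and 1519 CPM in endothelial cells and 63.5, 44.2 and 37.4 CPM in epithelial cells (5.02 ± 0.47, adjusted p = 3.6e-06). It was far higher in endothelial cells of every library. Meis1 was higher in stromal than in epithelial cells (3.10 ± 0.20, adjusted p = 4.4e-07). In podocytes against other epithelial cells 3 of 9 rose (Pbx2 2.42, Pbx3 1.64, Pknox2 1.39) and 5 fell (Pbx4 -4.39), where 33.9% of all genes rose and 37.5% fell. In stromal against endothelial cells 4 of 8 rose and 3 fell (20.7% and 22% of all). In mesangial against smooth muscle and renin cells 2 of 7 rose and 1, Meis1, fell by 1.65 on the log2 scale (18.6% of all genes rose and 18.6% fell). With 7 to 9 genes tested, 1 gene more or less moves these shares widely, and none is read as particular to the list.

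Of the 14 listed noncoding RNAs of the Hox clusters, 6 passed the filter in the podocyte comparison, where 4 rose and 2 fell (33.9% and 37.5% of all genes did). Hoxb5os had 1.34, 1.33 and 0.904 CPM in podocytes and 102, 95.2 and 109 CPM in principal cells (podocyte against other epithelial -5.54 ± 0.18, adjusted p = 3e-07). Its direction was that of the protein-coding HoxB genes nearby, with which reads may be shared. Of 5 tested between lineages, 0 rose and 4 fell in endothelial against epithelial cells (31.6% and 31.9% of all), and 0 rose and 4 fell in immune against epithelial cells (27.8% and 32% of all). In stromal cells 1 rose (Hoxb3os) and 2 fell against epithelial cells (26.4% and 26.9% of all), and 4 rose and 1 fell against endothelial cells (20.7% and 22% of all). In mesangial against smooth muscle and renin cells 1 of 4 rose and 1 fell (18.6% and 18.6% of all). Hotair had 5 UMIs and Hottip none.

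Of 16 Polycomb and Trithorax regulators, which keep Hox genes off and on, 10 rose and 0 fell in endothelial against epithelial cells by the edgeR test, with a median of 0.41, where 31.6% of all genes rose and 31.9% fell. In stromal against epithelial cells 5 rose and 3 fell (26.4% and 26.9% of all), and in immune against epithelial cells 7 rose and 2 fell (27.8% and 32% of all). In stromal against endothelial cells 1 rose and 5 fell (20.7% and 22% of all), in podocytes 6 of 15 rose and 2 fell (33.9% and 37.5% of all), and in mesangial against smooth muscle and renin cells 2 of 14 rose and 0 fell (18.6% and 18.6% of all). Ezh2, the histone methyltransferase of the Polycomb group, fell in podocytes (-3.16 ± 0.26, adjusted p = 2.8e-05), and Bmi1 rose (1.33 ± 0.10, adjusted p = 1.3e-05). Of 10 kidney partners of Hox proteins, Itga8, Ren1 and Pax8 are also markers by which classes were named and are left out here, and 4 of the other 7 were tested between lineages. Of these 4, 1 rose and 2 fell in stromal (26.4% and 26.9% of all genes), 0 rose and 3 fell in endothelial (31.6% and 31.9%) and 0 rose and 3 fell in immune cells (27.8% and 32%) against epithelial cells. All 4 rose in stromal against endothelial cells (20.7% of all), 2 rose and 2 fell in podocytes (33.9% and 37.5% of all), and the 1 tested fell in mesangial cells (18.6% of all). Pax2, partner of Hox11 proteins in the embryo, fell in podocytes (-7.10 ± 0.18, adjusted p = 1.9e-07). None of the 8 Cdx and ParaHox genes, which lie upstream of Hox genes in the embryo, passed the filter.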

How the data were processed

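The deposited files hold, per the file headers and the values, raw UMI counts of each gene in each cell barcode (10x matrices). Per the submitters' processing notes they were made with Cell Ranger 6.1.2, STAR 2.7.5a and mm10; the annotation and the strand setting are not given in the sources used here. Barcodes with fewer than 500 genes or over 25% mitochondrial UMIs were removed. The barcodes with the highest Scrublet scores were removed as doublets at 0.8% per 1000 cells, because the automatic threshold was uneven, marking 149 (female ERaKO), 93 (male) and 4 (female); the rate used removed 55, 89 and 67. Cells were clustered in scanpy 1.11.5 (2000 variable genes without Hox genes, 30 principal components, 15 neighbours, Leiden resolution 1). Clusters were named from 18 marker lists, with score limits set after the clusters were seen. UMIs were summed per class and library and tested with edgeR 4.0.16 (TMM, filterByExpr, quasi-likelihood, library as block; R 4.3.3), with DESeq2 1.42.0 as an alternative. The library is the block because every lineage of a library comes from the same tissue preparation.

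Sums have exact Poisson and shares exact Clopper-Pearson 95% intervals, which cover counting error only, and the limit at 0 UMIs is 3 counts. Libraries held 44585342 to 47522141 UMIs, and kept cells a median of 7338 to 8834. On simulated counts of stromal against epithelial cells the edgeR step recovered 50 of 50 genes raised 4-fold and 48 lowered 4-fold, but 24 raised 2-fold and 14 lowered 2-fold. Of immune against epithelial cells it recovered 50, 35, 11 and 10, so a gene that did not pass may still differ. The members, lists and marker classes were chosen with earlier results of these data known, and no paper was used. Named Hox genes are those with at least 100 UMIs over the kept cells. Genes of other lists were named where they had at least 100 UMIs in a lineage or one of the 3 largest changes of their list. Unnamed cells entered no lineage. One Hox gene and one cofactor count in the totals but are not reported here.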

Additional observations from a re-analysis of the deposited data

How the results depend on the processing

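Of 2330 recomputed fold changes of single Hox genes, 2160 kept their side of the threshold (with no change of sign where either value was called), 107 lost and 40 gained a call, and 23 that were called in at least 1 setting changed sign. Of 114 calls, 73 held under every alternative run for them: 5 of 15 in stromal against epithelial, 11 of 21 in endothelial against epithelial, 15 of 24 in immune against epithelial, 17 of 21 in stromal against endothelial, 23 of 27 in podocytes and 2 of 6 in mesangial cells. Leaving out 1 library in turn gave 6 to 11 genes higher and 4 to 6 lower in stromal against epithelial cells, 4 to 8 and 13 to 15 in endothelial against epithelial, 0 and 19 to 23 in immune against epithelial, 14 to 17 and 4 to 5 in stromal against endothelial, 8 to 9 and 16 to 19 in podocytes, and 0 to 1 and 3 to 5 in mesangial cells; the low ends of the first 2 comparisons came without the male library. In mesangial cells DESeq2 called 0 higher and 2 lower, and clustering at resolution 2 gave 3 higher. Library serves as the pairing of lineages; with no replicate block, 10, 6, 0, 16, 9 and 1 genes were higher and 5, 14, 24, 4, 17 and 4 lower in these 6 comparisons.

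Podocytes gave 63.1% of the epithelial UMIs. Without them 2 genes were higher in endothelial cells, and log2 fold changes took the other sign for Hoxa7 (0.75), Hoxb3 (-0.84), Hoxb6 (-0.89) and Hoxb9 (-1.33) in endothelial cells and for Hoxb3 (-0.58), Hoxb5 (-0.017), Hoxb7 (-0.85), Hoxc5 (1.20), Hoxc6 (0.95), Hoxc8 (0.29) and Hoxd10 (-0.83) in stromal cells against epithelial cells. With 1 sum per class and classes weighted equally they did so for Hoxa10 (0.93), Hoxb7 (-0.42), Hoxc4 (1.46), Hoxc5 (2.16), Hoxc6 (1.56) and Hoxc8 (0.90) in stromal cells, Hoxa7 (0.95) and Hoxb6 (-0.081) in endothelial cells and Hoxc5 (0.96) in immune cells against epithelial cells, and for Hoxb2 (-0.18) in stromal against endothelial cells. Hoxb9 in endothelial cells was at -0.74 with clustering at resolution 2 and -0.73 with called doublets kept. In both settings the endothelial class itself changed, and a cluster led by Tspan8 was left unnamed. In the main clustering it held 188, 206 and 181 of the endothelial cells, with a marker score of 0.65 at a naming limit of 0.6. The Esm1-led endothelial cluster was also left unnamed, and the Calca-led cluster was named endothelial. The part of these changes in the Hoxb9 values was not tested.

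Between libraries, a pseudocount of 0.5 or 5 gave 3 or 0 genes higher in female ERaKO podocytes and 2 or 0 in male podocytes; a pseudocount of 0.5 gave 1 gene lower in female ERaKO endothelial cells. Male endothelial cells had 0 higher with a pseudocount of 5, with a minimum of 50 counts or with cells assigned one by one. The minimum of 50 counts left 2 lower in female ERaKO stromal cells, and cells assigned one by one gave 1 higher and 1 lower in male stromal cells. The immune sum was 208 CPM with cells assigned one by one. Shares with a Hox UMI were 99.2%, 96.2%, 26.9% and 99.6% without thinning in stromal, endothelial, immune and epithelial cells, and 85.7%, 66.2%, 11.56% and 87.5% at 2000 UMIs per cell, so depth limits them. The settings that leave out the Cst12-led or the fibroblast-like cells, or add the Calca-led cells, were chosen after seeing the data.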

Other observations

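A cluster of 286 cells led by Calca, Thbd and Calcrl entered no class. Its summed Hox level over all libraries was 539.6 CPM, with 206 CPM of HoxA, 306 CPM of HoxB, 10.0 CPM of HoxC and 17.8 CPM of HoxD, beside 588 CPM in all in endothelial cells, of which HoxA had 201, HoxB 347, HoxC 10.9 and HoxD 29.9 CPM. Adding these cells to the endothelial sums gave 7 genes higher and 15 lower against epithelial cells. A podocyte cluster of 375 cells led by Cst12 had 1196 CPM of Hox transcripts, with 396 CPM of HoxA, 98.9 CPM of HoxB, 580 CPM of HoxC and 122 CPM of HoxD, against 462, 37.2, 601 and 80.3 CPM in all podocytes. With this cluster left out, 9 genes were higher and 18 lower in podocytes than in other epithelial cells. Neither pair of values was tested, since the clusters were picked after they were seen.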
